A study of Mus musculus with 4 samples.

Results

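The mRNAs of 10 subunits of the ionotropic glutamate receptors were followed across 4 libraries of sorted mouse striatal neurons. They comprised 6 subunit genes of the NMDA receptor (Grin1, Grin2a, Grin2b, Grin2c, Grin2d and Grin3a) and 4 of the AMPA receptor (Gria1, Gria2, Gria3 and Gria4). The genes were chosen by symbol, and all 10 were found among the 37620 Ensembl identifiers of the count and FPKM tables. Spiny projection neurons of the corpus striatum were sorted on EGFP from male mice on a C57BL6/J background aged 5 to 6 months. Direct-pathway neurons (D1) came from Drd1-EGFP BAC mice and indirect-pathway neurons (D2) from Drd2-EGFP BAC mice. The Q175 animals were heterozygous for the zQ175 knock-in, an expanded CAG repeat in Htt that models Huntington's disease, and the WT animals were their wild-type littermates. Values are given for D1 neurons first, WT before Q175, and then for D2 neurons. A group was a single library made from a pool of 4 animals with 150000 sorted cells per animal, and every animal carried an EGFP reporter. Cell type therefore cannot be told apart from reporter line, pool or sort, and no ratio of 2 libraries was replicated.

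AMPA receptors carry most of the fast excitatory current at synapses from cortex and thalamus onto spiny neurons. NMDA receptors open only when glutamate is bound and depolarization has relieved a magnesium block, and they admit calcium. An NMDA receptor needs GluN1, encoded by Grin1, together with GluN2 or GluN3 subunits. GluN2A and GluN2B are known as the main GluN2 subunits of the adult striatum, and extrasynaptic NMDA receptor signalling has long been studied in Huntington's disease models. In AMPA receptors, GluA2 decides calcium entry: its transcript is edited by ADAR2 at the Q/R site of the pore loop, and receptors without edited GluA2 pass calcium.

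The pore site that sets ion selectivity is shown for 8 of the 10 subunits because the balance of Gria2 against the other AMPA subunits, and of GluN2 against Grin1, is what the levels below describe. Each line gives 33 bases of coding sequence, 5′ to 3′, found by translation of GENCODE M21 transcripts (GRCm38), with the codon of the pore site in capitals. All windows lie within 1 coding exon. No window is given for Grin2b or Grin3a.
Gria1: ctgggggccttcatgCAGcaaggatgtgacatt
Gria2: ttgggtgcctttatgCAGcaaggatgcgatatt
Gria3: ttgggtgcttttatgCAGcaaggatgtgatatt
Gria4: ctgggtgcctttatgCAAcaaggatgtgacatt
Grin1: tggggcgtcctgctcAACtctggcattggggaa
Grin2a: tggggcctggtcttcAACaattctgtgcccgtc
Grin2c: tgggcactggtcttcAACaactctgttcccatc
Grin2d: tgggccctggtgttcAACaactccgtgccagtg

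In the 4 Gria genes the capitals mark the genomic glutamine codon of the Q/R site, and in the Grin genes the asparagine codon of the pore site called the N site. The Gria2 window (chr3:80706896-80706928, minus strand, exon 11) differed from that of Gria3 (chrX:41610250-41610282, plus strand, exon 11) at 2 of 33 bases. It differed at 4 bases from Gria4 (chr9:4464122-4464154, minus strand, exon 12) and at 5 from Gria1 (chr11:57243079-57243111, plus strand, exon 11). The codon itself is CAG in Gria1, Gria2 and Gria3, and CAA in Gria4. The Grin1 window lies at chr2:25297371-25297403 (minus strand, exon 14) and Grin2a at chr16:9653546-9653578 (minus strand, exon 10). Grin2c lies at chr11:115253848-115253880 (minus strand, exon 11) and Grin2d at chr7:45854378-45854410 (minus strand, exon 8). The tables hold levels per gene, so editing at these sites was not analysed here.

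Total counts lay between 39444117 and 42787068 per library, and the detection floor of 3 counts was worth 0.0689 to 0.0780 CPM (counts per normalized library size). The markers followed the labels of the sort: the 5 D2 markers summed to 12250 CPM in D2 WT and 103 in D1 WT, and the 5 D1 markers to 166 and 2868. Of 8 spiny neuron markers 6 fell in Q175 and 0 rose, with sums of 11670 and 12560 CPM in WT and 7314 and 7960 in Q175. Among all genes tested, 14.0% fell and 13.8% rose. In such bulk samples, fewer cells of a type and less RNA per cell cannot be told apart. Mitochondrial transcripts took 6.06% and 6.49% of counts in D1 WT and D2 WT, and 8.98% and 11.1% in D1 Q175 and D2 Q175.

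On the deposited FPKM scale Grin1 stood above the AMPA subunits, and the other NMDA subunits far below them. In FPKM (counts per length and library size), Grin1 ranged from 422 to 512 over the 4 libraries. Gria2 (117 to 136) and Gria1 (120 to 156) came next, with overlapping ranges. Gria3 (77.0 to 96.1) and Gria4 (18.4 to 22.1) followed, each clear of its neighbours. Grin2b stood at 1.70 to 3.19 FPKM, and Grin2a (0.531 to 1.005), Grin2d (0.535 to 0.879) and Grin2c (0.439 to 0.658) overlapped with one another. Grin3a was lowest at 0.0579 to 0.140 FPKM, from 17 to 42 counts.

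**Figure D1:**
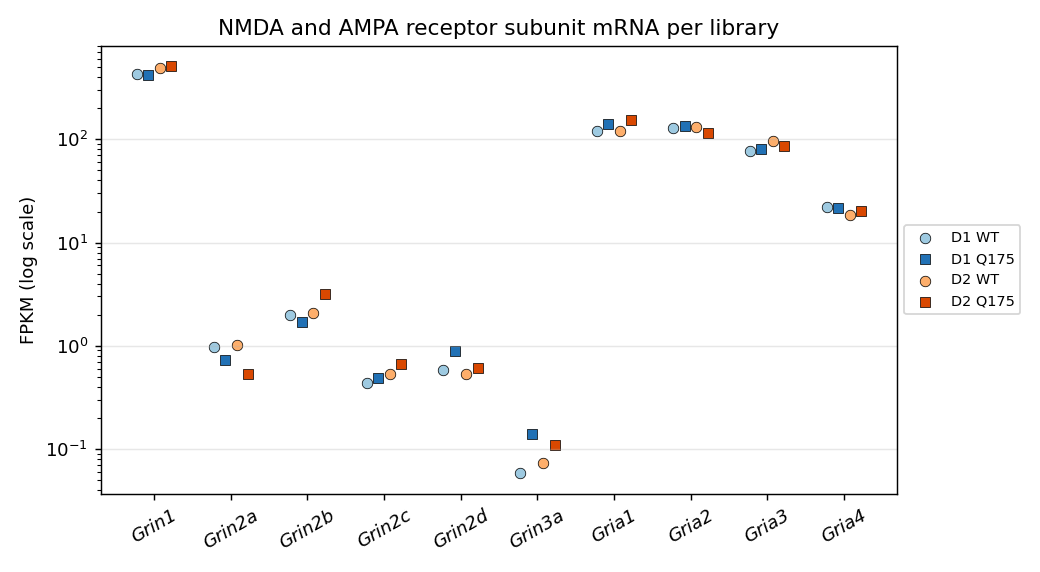
FPKM (log scale) of the 10 subunit genes, 1 point per library, with circles for WT, squares for Q175, blue for D1 and orange for D2. Grin1 and the 4 Gria genes lie above 18 FPKM in every library, and the other Grin genes lie at 3.19 FPKM or below.

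In the deposited values, the 4 GluN2 genes together reached only a small part of the Grin1 level. Their summed FPKM was 0.00917 of that of Grin1 in WT and 0.00896 in Q175 for D1 neurons, and 0.00846 and 0.00975 for D2 neurons. In counts the ratio was 0.0246, 0.0237, 0.0211 and 0.0212. The ratio was thus low in all 4 libraries, whatever the cell type or genotype. The place of Grin1 above the AMPA subunits, and the size of its gap to GluN2, depend on how lengths entered the tables. The ratio of Grin1 to Gria2 was 3.33, 3.10, 3.74 and 4.39 in FPKM, but 0.920, 0.781, 0.986 and 1.03 in counts not scaled by length, where Grin1 was below Gria2 in 3 of the 4 libraries. Dividing the counts of Grin1 by its FPKM and by the library total gives an implied transcript length of 1.61 to 1.89 kb, whereas its 8 coding transcripts in GENCODE M21 are 3.81 to 4.28 kb long. For Gria1 the implied length was 5.38 to 5.39 kb and for Gria2 6.85 to 6.86 kb, nearly the same in each library. The implied length was 4.16 to 4.78 kb for Grin2a and 2.81 to 5.27 kb for Grin2b, whose longest annotated transcripts reach 14.6 and 24.1 kb. Which transcript parts the authors counted for these 2 genes is not given in the sources used here. Reads from parts not counted would be missing from their levels, so the ratio of GluN2 to Grin1 holds only for what was counted.

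**Figure D2:**
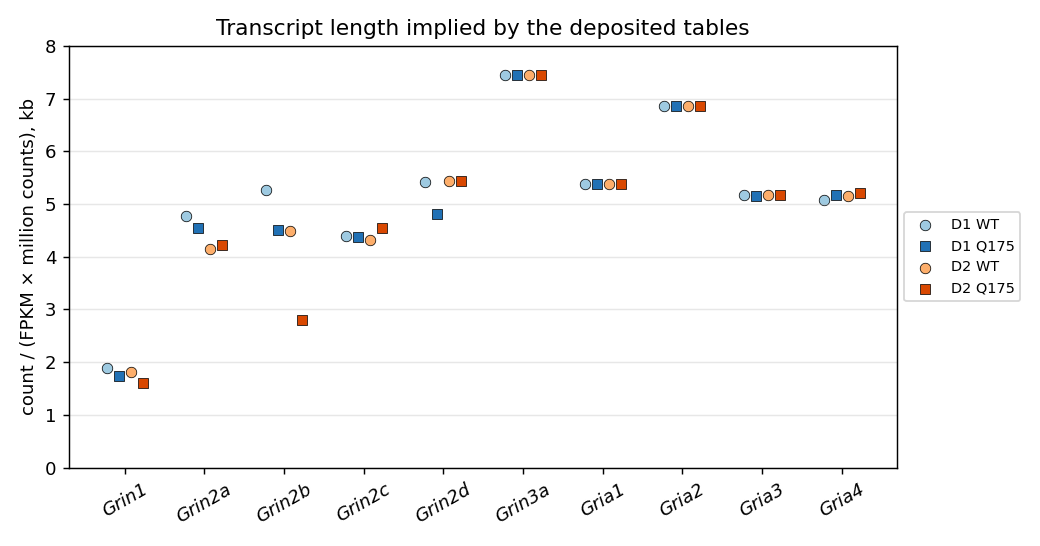
Transcript length in kb implied by the deposited tables (count divided by FPKM and by the library total) for each subunit gene, 1 point per library. Gria1, Gria2, Gria3 and Grin3a show 1 length in all libraries, Grin1 lies between 1.61 and 1.89 kb, and Grin2b drops to 2.81 kb in D2 Q175 against 4.49 to 5.27 kb elsewhere.

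The genotype comparison asked how the knock-in alters these receptor mRNAs. Across both cell types, 1 of the 10 subunit genes fell, namely Grin2a, and 0 rose (edgeR quasi-likelihood test, adjusted over all 15668 genes tested). Over all genes, 14.0% were called lower and 13.8% higher, so a count of 1 in 10 lies near the background. Of the genes called, 49.6% were higher, a share that was 67.3% when scaled by library totals and 35.9% with the DESeq2 Wald test. An unadjusted p under 0.05 was found for 5 of the 10 (Grin1, Grin2a, Grin2b, Grin3a and Gria1), against 38.4% of all genes tested. The median shared effect of the 10 genes was -0.06 on the log2 scale, against 0.004 over all genes tested, and it became 0.02 when scaled by library totals and 0.13 with limma on log2(FPKM + 0.1). Between single libraries, 6 of the 10 reached 5 CPM in one of the pair, and 0 of these 6 were 1.5-fold apart in D1 or in D2, where 7.70% and 9.51% of genes were. Grin2a and Grin3a lay below 5 CPM in every library and were not counted. The fold of Q175 over WT was 0.661 in D1 and 0.517 in D2 for Grin2a, and 2.15 and 1.41 for Grin3a. Grin2c and Grin2d, also below 5 CPM, were not 1.5-fold apart.

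Grin1 encodes the subunit common to NMDA receptors. It stood at 843 CPM in WT and 704 in Q175 among D1 neurons, then 913 and 811 among D2 neurons. Within each cell type the Q175 library was lower, and the highest Q175 value lay below the lowest WT value. Q175 against WT gave a log2 ratio of -0.26 in D1 (-0.28 to -0.24, the 95% interval of counting error) and -0.17 in D2 (-0.19 to -0.15). The shared effect of -0.22 ± 0.09 log2 units (SE, 4 libraries) did not pass (edgeR, adjusted p = 0.077), and its 95% interval ran from -0.40 to -0.03. On the FPKM scale Grin1 stood at 434, 422, 490 and 512 in the same order, which gives a shared effect of 0.01. The implied length was 1.89, 1.73, 1.81 and 1.61 kb in that order, shorter in Q175 within each cell type, and its part in this difference between the scales was not tested. An antisense gene, Grin1os, overlaps Grin1, and no source used here states that the counting used strand.

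Grin2a encodes GluN2A, the subunit typical of mature synaptic NMDA receptors. It had 185 counts (WT) and 132 (Q175) in D1, against 171 and 96 in D2, or 4.81, 3.16, 4.31 and 2.20 CPM. Both Q175 libraries lay below both WT libraries. The log2 ratio was -0.60 in D1 (-0.94 to -0.28) and -0.95 in D2 (-1.34 to -0.60), and the interval of the difference between the cell types (-0.84 to 0.13) included 0. Over both cell types Grin2a fell by 0.78 ± 0.19 on the log2 scale (SE), with both cell types lower and an adjusted p of 0.0027 in edgeR. The call was also made with DESeq2 size factors, with library totals and without a filter on low counts. It was lost with the DESeq2 Wald test (-0.79, adjusted p = 0.13), with limma on log2(FPKM + 0.1) (-0.60 with that pseudocount, adjusted p = 0.14) and without cell type in the model (-0.77, adjusted p = 0.21). Spiny neuron markers moved the same way, with 6 of 8 lower, against 14.0% of all genes, and a median effect of -0.53. Their part in the value of Grin2a was not tested.

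Grin2b encodes GluN2B, which dominates early in development and stays high in the adult forebrain. Its counts were 412 in WT and 308 in Q175 for D1 neurons, and 380 and 383 for D2 neurons, or 10.7, 7.37, 9.57 and 8.80 CPM. In CPM, D1 Q175 was lowest and D2 Q175 next, with both WT libraries above them. The log2 ratio was -0.54 in D1 (-0.76 to -0.32) and -0.12 in D2 (-0.33 to 0.09), a difference of 0.41 between the cell types (0.12 to 0.71, counting error only). The shared effect of -0.33 ± 0.14 did not pass (edgeR, adjusted p = 0.077). FPKM gave another picture, at 1.98, 1.70, 2.07 and 3.19 in the same order, so that D2 Q175 was the highest library and the shared effect turned to 0.19 (limma, adjusted p = 0.59). In D2 Q175 the implied length was 2.81 kb, against 4.49 to 5.27 kb in the other libraries, while its count was almost that of D2 WT. Noncoding genes such as Gm14330 overlap Grin2b on the other strand. No direction of Grin2b in D2 neurons can therefore be read from these tables.

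Grin2c and Grin2d encode GluN2C, best known from cerebellum and astrocytes, and GluN2D, which in striatum is known from interneurons. Grin2c stood at 1.98 CPM in WT and 2.06 in Q175 among D1 neurons, then 2.39 and 2.94 among D2 neurons. Grin2d stood at 3.22, 4.07, 2.998 and 3.26 CPM in the same order, and it overlaps the protein-coding gene Kdelr1 on the other strand, so its reads are uncertain. Neither passed: the shared effect was 0.19 ± 0.21 for Grin2c (edgeR, adjusted p = 0.56) and 0.23 ± 0.19 for Grin2d (adjusted p = 0.38). Their intervals, -0.25 to 0.63 and -0.15 to 0.61, leave room for changes of either sign.

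Grin3a encodes GluN3A, which lowers the calcium permeability of NMDA receptors. It had 17 counts (WT) and 42 (Q175) in D1, against 22 and 35 in D2, or 0.442, 1.01, 0.554 and 0.804 CPM. Both Q175 libraries lay above both WT libraries, all at counts where sampling alone is wide. The log2 ratio was 1.10 in D1 (0.34 to 2.09) and 0.50 in D2 (-0.27 to 1.38). The shared effect of 0.85 ± 0.36 did not pass (edgeR, adjusted p = 0.079). The gene Ppp3r2 and a processed pseudogene lie within the span of Grin3a on its strand.

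Since the Grin2 and Grin3a transcripts are low here and are also expressed by other cells, markers of such cells stand beside them. The share of all genes tested that rose in Q175 was 13.8%, and each marker list below holds few genes. Summed over 9 interneuron markers, levels were 14.3 CPM in WT and 11.5 in Q175 for D1 neurons, and 7.81 and 10.95 for D2 neurons, and 2 of the 6 tested rose in Q175. The 4 cholinergic markers found summed to 0.572, 0.383, 1.01 and 1.63 CPM in the same order, and 0 of 2 tested passed. Oligodendrocyte precursor markers (5) summed to 2.57, 4.09, 4.43 and 8.15 CPM, and 2 of 4 tested rose. Astrocyte markers (7) summed to 160, 176, 191 and 242 CPM, and 2 of 7 rose. All 3 of the precursor, astrocyte and oligodendrocyte sums were thus higher in Q175 within each cell type, the last at 359, 434, 391 and 510 CPM with 4 of 6 rising. Markers of cortical pyramidal neurons (6), cells rich in Grin2a, summed to 5.56, 8.45, 1.18 and 2.43 CPM, the other way from Grin2a between the genotypes. No marker of these lists was at 0 in all libraries, and their part in the values of Grin2a, Grin2b, Grin2c, Grin2d and Grin3a was not tested.

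Within the GluN2 genes, the share of Grin2a in the summed FPKM was 24.6% in WT and 19.0% in Q175 among D1 neurons, then 24.2% and 10.6% among D2 neurons. In counts, which do not carry the length estimate, the share was 23.2% (exact 95% binomial interval 20.3 to 26.3%), 19.0% (16.1 to 22.1%), 22.4% (19.5 to 25.5%) and 12.8% (10.5 to 15.4%). The share was alike in the WT libraries and lowest in D2 Q175 on both scales. A share within a library does not depend on scaling between libraries. In D1 the ratio of Grin2a to Grin2b counts in Q175 differed from that in WT by -0.07 log2 units (-0.45 to 0.32, counting error), and in D2 by -0.84 (-1.26 to -0.43). From FPKM these differences were -0.22 and -1.55. The D2 values rest on Grin2b in D2 Q175, where its implied length fell to 2.81 kb. The size of the D2 difference is therefore uncertain, and it was not tested.

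**Figure D3:**
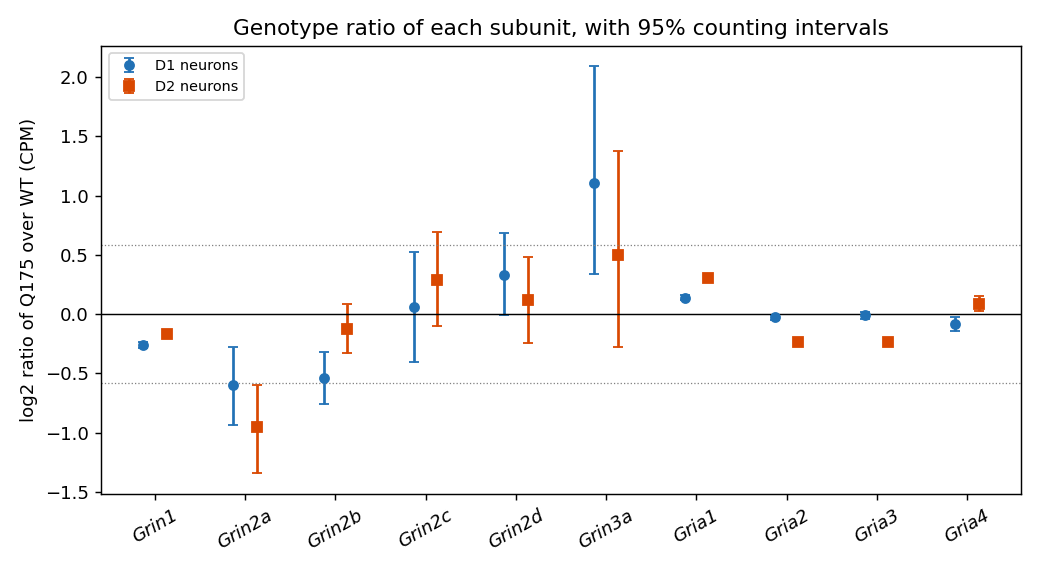
Log2 ratio of Q175 over WT, from CPM, for each subunit gene in D1 (blue circles) and D2 neurons (orange squares), with bars for the 95% counting interval and dotted lines at 1.5-fold. Grin1, Grin2a, Grin2b, Gria2 and Gria3 lie below 0 in both cell types, and Grin2c, Grin2d, Grin3a and Gria1 above 0. Gria4 lies below 0 in D1 and above 0 in D2. The bars of the low genes Grin2c, Grin2d and Grin3a are wide and include 0 in D2. Those of Grin2c, Grin2d and Gria3 in D1 and of Grin2b in D2 also include 0.

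Gria1 encodes GluA1, the subunit delivered to synapses in activity-dependent plasticity. It stood at 667 CPM (WT) and 735 (Q175) in D1, against 666 and 824 in D2. The WT libraries were alike, and both Q175 libraries lay above them. The log2 ratio was 0.14 in D1 (0.12 to 0.16) and 0.31 in D2 (0.28 to 0.33), 1.10-fold and 1.24-fold. The shared effect of 0.22 ± 0.09 did not pass (edgeR, adjusted p = 0.068, higher in both cell types, 95% interval 0.04 to 0.41). It passed when scaled by library totals (0.30, adjusted p = 0.023), a scaling under which the median of all genes moved by 0.08.

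Gria2 encodes GluA2, the subunit that blocks calcium entry once edited. It stood at 916 CPM in WT and 901 in Q175 for D1 neurons, and at 926 and 786 for D2 neurons. D2 Q175 was the low library, and the other 3 lay within a narrow range. The log2 ratio was -0.03 in D1 (-0.05 to -0.004) and -0.24 in D2 (-0.26 to -0.21), 0.21 lower in D2 than in D1 (-0.24 to -0.18 by counting error, not tested between cell types). The D1 ratio became 0.07 when scaled by library totals. The shared effect of -0.13 ± 0.09 did not pass (edgeR, adjusted p = 0.31), with a 95% interval from -0.32 to 0.06.

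Gria3 encodes GluA3, which pairs with GluA2 in many forebrain synapses. It stood at 408 CPM in WT and 405 in Q175 among D1 neurons, then 512 and 436 among D2 neurons. D2 WT was the high library. The log2 ratio was -0.01 in D1 (-0.04 to 0.02) and -0.23 in D2 (-0.26 to -0.20). The D1 ratio became 0.08 when scaled by library totals. The shared effect of -0.12 ± 0.09 did not pass (edgeR, adjusted p = 0.33).

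Gria4 encodes GluA4, a subunit with fast kinetics that is known from interneurons and cerebellum. It stood at 115 CPM (WT) and 108 (Q175) in D1, against 97.7 and 104 in D2. The genotype ratio had opposite signs, -0.08 in D1 (-0.14 to -0.02) and 0.09 in D2 (0.03 to 0.15), and the D1 ratio became 0.01 when scaled by library totals. The shared effect was 0.003 ± 0.08 (edgeR, adjusted p = 0.98), with a 95% interval from -0.17 to 0.17, so a shared change as large as that of Grin2a lies outside it.

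Gria1 took a larger share of the AMPA subunit mRNA in the Q175 libraries than in the WT libraries, with the wider gap in D2. It made up 34.5% of the summed Gria FPKM in WT and 37.2% in Q175 for D1 neurons, and 32.8% and 41.2% for D2 neurons. Gria2 made up 37.3%, 35.8%, 35.9% and 30.8% in the same order. Gria2 was the leading AMPA subunit in both WT libraries and Gria1 in both Q175 libraries. The FPKM ratio of Gria1 to Gria2 was 0.925 in WT and 1.04 in Q175 for D1 neurons, and 0.914 and 1.34 for D2 neurons. From counts, this ratio was higher in Q175 by 0.17 log2 units in D1 (0.13 to 0.20, counting error) and by 0.54 in D2 (0.51 to 0.58), and from FPKM by 0.17 and 0.55. On counts not scaled by length, Gria2 led in 3 of the 4 libraries and Gria1 in D2 Q175. Each of these values rests on 1 library per group and was not tested. Gria3 held 22.0%, 21.4%, 26.3% and 22.7% of the FPKM, and Gria4 stayed between 5.03% and 6.30%.

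**Figure D4:**
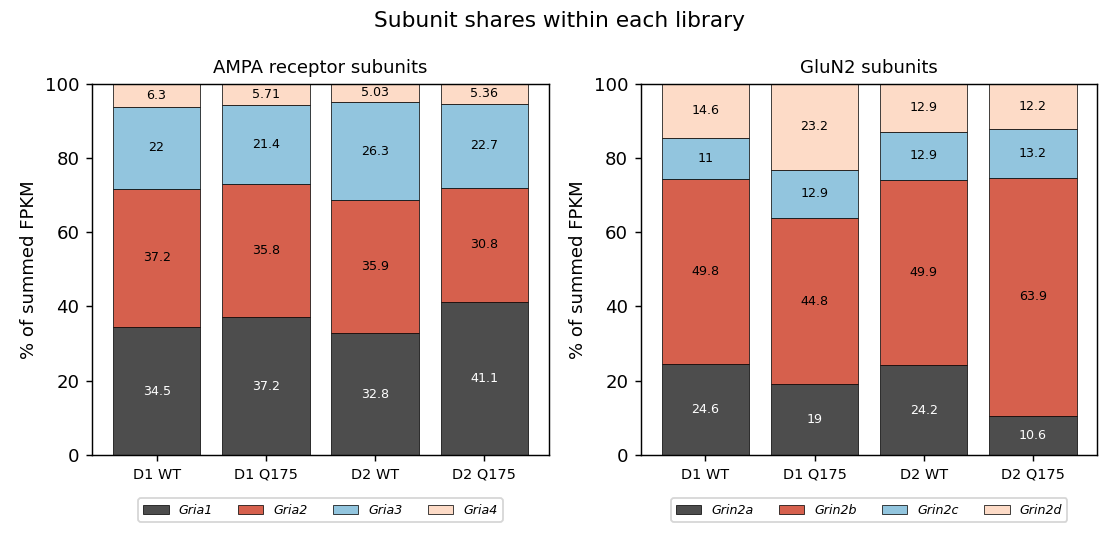
Percent of the summed FPKM of the 4 AMPA subunit genes (left) and of the 4 GluN2 genes (right) in each library, as stacked bars that each add to 100. Gria1 is the largest AMPA share in both Q175 libraries, at 37.2% and 41.2%, and the Grin2a share is smallest in D2 Q175, at 10.6%.

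The cell type comparison asked whether direct- and indirect-pathway neurons differ in these subunits. With both genotypes in 1 fit, 0 of the 10 genes passed (edgeR, adjusted over 15668 genes, of which 13.4% passed in either direction), and 0 passed with the DESeq2 Wald test or limma on FPKM. At an unadjusted p under 0.05 there was 1 of 10, Gria3, against 26.4% of all genes tested. Its D2 minus D1 effect was 0.22 ± 0.09 (edgeR, adjusted p = 0.11, higher in D2 in both genotypes). In WT its log2 ratio of D2 over D1 was 0.33 (0.30 to 0.36), and in Q175 it was 0.11 (0.08 to 0.14). Gria4 ran lower in D2, at -0.23 in WT (-0.29 to -0.17) and -0.06 in Q175 (-0.12 to -0.001), with a shared effect of -0.15 ± 0.08 (adjusted p = 0.27). Grin1 was at 0.12 in WT and 0.21 in Q175, with a shared effect of 0.16 ± 0.09 (adjusted p = 0.27). Gria1 and Gria2 were nearly equal between the cell types in WT, at -0.002 (-0.03 to 0.02) and 0.02 (-0.01 to 0.04), and stood apart in Q175, at 0.17 (0.14 to 0.19) and -0.20 (-0.22 to -0.18). Of the 6 genes at or above 5 CPM, 0 were 1.5-fold apart between D2 and D1 in WT or in Q175, where 5.63% and 5.10% of genes were.

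Many of the listed genes whose products anchor, traffic or modify these receptors were lower in Q175. The partner lists here and below were chosen with earlier results of these data known. Their shares beside those of all genes are therefore no test of an excess. Of 22 tested genes for AMPA receptor auxiliary and assembly proteins, 12 fell and 4 rose in Q175. Over all genes tested, 14.0% fell and 13.8% rose, or 27.8% in either direction. Against a median of 0.004 over all genes, the 22 had a median shared effect of -0.29. That median stayed negative under all 7 alternatives, from -0.30 to -0.20, while the number that fell ranged from 0 to 12. Gsg1l, which encodes an AMPA receptor auxiliary protein, fell by 0.78 ± 0.08 on the log2 scale (edgeR adjusted p = 1.7e-07), from 259 to 147 CPM among D1 and 251 to 151 among D2 neurons. The neuronal pentraxin gene Nptx2, whose product clusters AMPA receptors, fell by 0.54 ± 0.09 (adjusted p = 4e-05), and Cacng3, a transmembrane AMPA receptor regulatory protein (TARP) gene, by 0.51 ± 0.08 (adjusted p = 5e-05). Cnih3, which encodes a cornichon auxiliary subunit, rose by 0.79 ± 0.12 (adjusted p = 3.6e-05), from 12.6 to 18.0 CPM among D1 and 11.6 to 24.0 among D2 neurons. The others that rose, named after their values were seen, were Cacng5 (0.50), Cacng7 (0.27) and Olfm1 (0.31). TARP genes thus went both ways, since Cacng2 (-0.35), Cacng4 (-0.42) and Cacng8 (-0.40) fell beside Cacng3.

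Of 12 genes for AMPA receptor trafficking, 5 fell and 1 rose, with a median of -0.22, where 14.0% of all genes fell and 13.8% rose. Akap5, which encodes the anchor of kinases and calcineurin at these receptors, fell by 0.44 ± 0.08 (edgeR, adjusted p = 0.00031). Gripap1 fell by 0.38 ± 0.08 (adjusted p = 0.0013), and Arc, an activity-induced gene whose product promotes AMPA receptor removal, fell by 0.35 ± 0.10 (adjusted p = 0.0094). Grip1, which encodes a scaffold that binds GluA2 and GluA3, rose by 0.48 ± 0.11 (adjusted p = 0.002), from 15.6 to 25.3 CPM among D1 and 21.1 to 25.4 among D2 neurons.

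Of 21 genes for NMDA receptor anchoring and regulation, 10 fell and 1 rose, with a median of -0.16, where 14.0% of all genes fell and 13.8% rose. Neto2, an auxiliary subunit gene best known for kainate receptors, fell by 1.03 ± 0.08 (edgeR, adjusted p = 3e-09), from 308 to 155 CPM among D1 and 282 to 134 among D2 neurons. Dlg2, which encodes the scaffold PSD-93, fell by 0.82 ± 0.08 (adjusted p = 6.7e-08). Ptpn5 encodes STEP, the striatal phosphatase that acts on GluN2B, and it fell by 0.63 ± 0.09 (adjusted p = 1.6e-05). Neto1, whose product binds NMDA and kainate receptors, fell by 0.47 ± 0.08 (adjusted p = 0.00013). Ephb2, a receptor tyrosine kinase gene at 2.22 to 4.48 CPM, was the one that rose (0.77 ± 0.19, adjusted p = 0.004). The number that fell was 0 to 9 under the alternatives for this list and 0 to 5 for the trafficking list, and both medians stayed negative. Beside these lists, 6 of 8 spiny neuron markers fell and 4 of 6 oligodendrocyte markers rose, and their part in the partner genes was not tested.

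None of the 3 RNA editing genes passed. Adarb1, which encodes ADAR2, had a shared effect of -0.10 ± 0.08 (edgeR, adjusted p = 0.38), from 141 to 135 CPM among D1 and 146 to 134 among D2 neurons. Adar stood at -0.14 ± 0.08 (adjusted p = 0.24) and Adarb2 at 0.16 ± 0.12 (adjusted p = 0.37). Among the related genes listed, Grid1, which encodes the delta receptor GluD1, fell by 0.29 ± 0.09 (edgeR, adjusted p = 0.016). That call was lost with library totals, the DESeq2 Wald test, limma, no filter or no cell type in the model. Grina (-0.05 ± 0.09), listed by its symbol but not a receptor subunit gene, did not pass. The subunit gene Grin3b (-0.37 ± 0.19, edgeR adjusted p = 0.15) did not pass either. Grin3b stayed at 2.60 to 3.83 CPM.

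**Figure D5:**
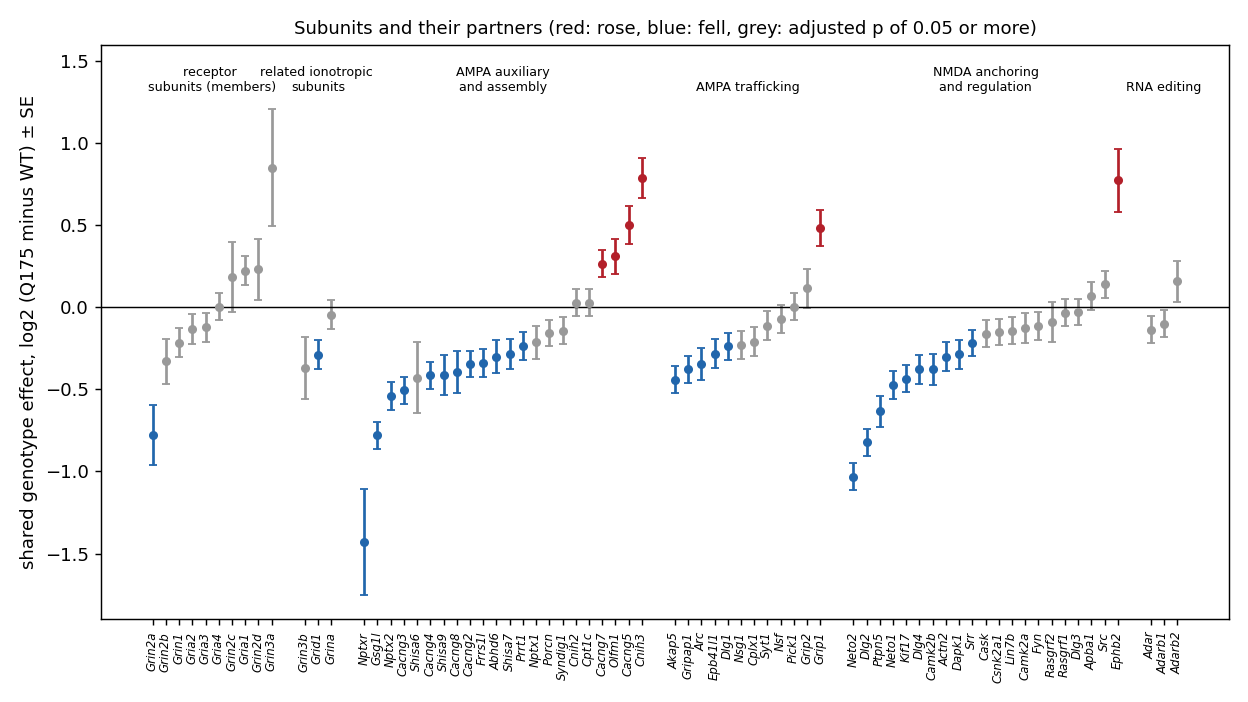
Shared genotype effect (log2, Q175 minus WT, edgeR) with its SE for the 10 subunit genes and 5 lists of related or partner genes, ordered by effect within each list, with 1 related subunit gene not shown. Red points rose, blue points fell and grey points did not pass. Among subunit genes 1, Grin2a, is blue, against 12 of 22 auxiliary and assembly genes and 10 of 21 NMDA receptor anchoring and regulation genes. The lists were chosen with earlier results of these data known, so these counts do not test an excess.

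The genes whose pattern lay nearest to Grin2a, by Euclidean distance over 3 log2 ratios (genotype in D1, genotype in D2 and cell type in WT) among genes at 20 CPM or more in all 4 libraries, were Grik2, Slc41a1 and Osbpl8. Grik2, a kainate receptor subunit gene, lay at a distance of 0.05, with ratios of -0.61, -0.91 and -0.16 against -0.60, -0.95 and -0.16 for Grin2a, and a level of 372, 244, 333 and 177 CPM in the usual order. The distances of Slc41a1 and Osbpl8 were 0.12 and 0.14. The counting intervals of Grin2a (-0.94 to -0.28 in D1 and -1.34 to -0.60 in D2) are wider than these distances. Which genes lie nearest to Grin2a, and in which order, is therefore uncertain. Nearest to Gria1 were Ubl5 (0.01), Bzw2 (0.02) and Rnf208 (0.02). The counting intervals of Gria1 (0.12 to 0.16 in D1 and 0.28 to 0.33 in D2) are also wider than its distances. The genes nearest to Gria1 and their order are therefore uncertain too. The comparison took in 7286 genes.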

How the data were processed

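RNA of EGFP-sorted striatal neurons was sequenced as 4 libraries, 1 per group. The authors deposited expected counts per Ensembl gene without normalization (18.7% of values were not whole numbers) and FPKM, which the authors scaled per kilobase and per library, as the file titles and values show. The submitters' processing notes name CASAVA 1.8.2, and no source used here gives the aligner, counting program, strand setting, annotation or build. Symbols were matched through GENCODE M21 (GRCm38) for 32897 of 37620 identifiers, and pore sequences are from its genome.

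Counts were rounded. The edgeR 4.0.16 quasi-likelihood test (R 4.3.3, two-sided) took all 4 libraries in a model of genotype plus cell type, with TMM normalization and filterByExpr, and p-values were adjusted by Benjamini-Hochberg over 15668 genes at 0.05. The fit has 1 residual degree of freedom and a typical biological coefficient of variation of 6.8%. Its spread comes from how far the genotype ratios of D1 and D2 differ, pooled in large part over genes. An SE or p-value therefore does not measure a gene's own difference between D1 and D2. Each SE was computed from the effect and the F statistic of its test. The error of the fit covers these libraries only, and any batch common to the Q175 pair cannot be told apart from genotype. Ratios between 2 libraries (prior count 2) carry exact binomial 95% intervals and have no test. Intervals and the limit of 3 counts cover counting error only, since PCR copies were not marked by molecular identifiers. Ratios of 1.5-fold were counted at a CPM of 5 or more in either library. Alternatives used DESeq2 1.42.0, limma 3.58.1 on log2(FPKM + 0.1) or log2(FPKM + 1), other scalings and other filters. The code was tested on simulated data.

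The subunit genes, partner lists and markers were chosen with earlier results of these data known. All 10 subunit genes passed the filter and are named. Up to 4 genes per list with the smallest p are named, and for the 2 subunit genes with the smallest p, Grin2a and Gria1, the 3 nearest genes are named. Of the list genes Shisa8 and Slc18a3 were not matched. One related subunit gene and the pore sequence of Grin2b are not reported here.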

Additional observations from a re-analysis of the deposited data

Results flagged for a closer look

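The genotype log2 ratio of Gria4 had opposite signs in the cell types, lower in Q175 in D1 (-0.08) and higher in D2 (0.09), a difference of 0.17 (D2 minus D1). With 1 library per group the difference was not tested. Scaled by library totals, the ratio was 0.008 in D1 and 0.159 in D2, so the signs no longer differed but D2 stayed higher. On log2(FPKM + 0.1) it was -0.019 in D1 and 0.145 in D2, with the signs still apart.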

How the results depend on the processing

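Among subunit genes, the call of Grin2a was lost with the DESeq2 Wald test (-0.79, adjusted p = 0.13), with limma on log2(FPKM + 0.1) (-0.60, adjusted p = 0.14) or log2(FPKM + 1) (-0.30, adjusted p = 0.13) and without cell type in the model (-0.77, adjusted p = 0.21), each of which counted 0 subunit genes lower in place of 1. With library totals 1 was higher, Gria1. The shared genotype effect turned with limma on FPKM for Grin1 (0.011 with either pseudocount) and Grin2b (0.194 with 0.1 and 0.152 with 1). For Gria4 it turned to -0.001 with DESeq2 Wald, -0.004 without a filter and -0.001 without cell type. The D1 ratio of Gria2 was 0.065 with library totals and 0.064 on FPKM with either pseudocount, that of Gria4 0.008 with library totals, and the D2 ratio of Grin1 0.063 on FPKM. The cause was not tested.

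Genes called for genotype numbered 4351, against 1937 with DESeq2 Wald, 2284 and 1827 with limma (pseudocounts 0.1 and 1), 2182 without a filter and 4 without cell type. Those called for cell type numbered 2103, against 850, 608, 404, 663 and 77 in that order. Of the genotype calls 49.6% were higher, against 35.9% with DESeq2 Wald, 67.3% with library totals, and 66.9% and 66.0% with limma. At a CPM minimum of 1 or 20, genes past 1.5-fold numbered 1673 and 385 for genotype in D1 (841 at 5), 2025 and 492 in D2 (1043), 1249 and 293 for cell type in WT (610), and 1211 and 237 in Q175 (561). Subunit genes past 1.5-fold became 2 in D1 and 1 in D2 at a CPM minimum of 1, 1 in D2 on log2(FPKM + 0.1), and 1 for cell type in Q175 on FPKM with either pseudocount, from 0. Scaling by library totals moved the median genotype effect of all genes by 0.08.

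No paired analysis was possible because the labels give no replicate numbers and each group holds 1 library. Leaving out a library leaves no residual degree of freedom, so no such fit was run. Depth limits Grin3a (17 to 42 counts), Grin2a, Grin2c and Grin2d most, and for the deeply covered genes the single library per group is the limit, since counting intervals there are narrow.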

Other observations

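Among the partners, a few genes separated D2 from D1 neurons in the shared fit (edgeR quasi-likelihood, Benjamini-Hochberg over 15668 genes, 13.4% called). They are named here after their values were seen, and cell type is also reporter line. Rasgrf2, which encodes a guanine nucleotide exchange factor tied to NMDA receptor signalling, stood at 25.4 CPM in WT and 21.1 in Q175 for D1 neurons, and at 6.42 and 7.16 for D2 neurons, and was lower in D2 by a log2 difference of -1.77 ± 0.13 (SE, adjusted p = 9.5e-11, both genotypes). Adarb2, an editing enzyme relative without known editing activity, was lower in D2 (-0.74 ± 0.12, adjusted p = 0.00015), at 13.8, 17.3, 9.42 and 9.16 CPM in the same order. Akap5 was lower in D2 (-0.42 ± 0.08, adjusted p = 0.00084) and Arc higher (0.48 ± 0.10, adjusted p = 0.001). Lin7b, a scaffold gene, was higher in D2 (0.33 ± 0.08, adjusted p = 0.0073), at 87.9, 85.0, 118 and 100.1 CPM. In all, 1 of 22 auxiliary and assembly genes was higher in D2 and 3 lower, 1 of 12 trafficking genes higher and 2 lower, and 1 of 21 NMDA receptor anchoring genes higher and 2 lower.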
